A study of Mus musculus with 4 samples.

Results

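The cytokine receptor genes of the mouse dorsal root ganglion are described here through 10 genes: Il6st, Il6ra, Osmr, Lifr, Cntfr, Il1r1, Tnfrsf1a, Tnfrsf1b, Ifnar1 and Ifnar2. They were chosen by symbol, with earlier results of these data known. All 10 are found among the 48431 genes of the deposited table, and all 10 had at least 1 CPM (reads of a gene, scaled so that each library sums to 1000000) in each library. The table covers 4 RNA libraries of ganglion tissue from male wild-type (WT) mice of the strain labelled SW, each treated with methylglyoxal (MGO), a reactive by-product of sugar breakdown, given intraperitoneally over 6 days at 2 mg/kg. These 4 libraries form 1 group, the age of the mice is not given in the sources used here, and no untreated mice were analysed here, so the levels below describe MGO-treated ganglia and measure no response to MGO. Whether separate or pooled animals stand behind the libraries is not stated in the labels, so the p-values reflect only how these 4 samples vary, and that variation may be technical.

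The receptors fall into families that signal in different ways. Receptors of the interleukin 6 family share gp130, the product of Il6st, which pairs as the common signalling chain with a ligand-binding or partner chain such as those made by Il6ra, Cntfr, Lifr and Osmr, and then activates JAK kinases and STAT3. Il1r1 and the TNF receptors lead to NF-kB through adaptor proteins, and Ifnar1 and Ifnar2 form the receptor of type I interferons, which acts through the kinases JAK1 and TYK2 and STAT proteins. In sensory ganglia these pathways are known for roles in neuron survival, nerve injury and pain.

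The implied depth was 5576820 to 10138766 reads per library, and 3 reads, the floor used for a gene listed at 0, correspond to 0.296 to 0.538 CPM, a floor that covers counting error only. The libraries stood apart as 2 pairs: ribosomal RNA entries of the 18S locus were listed at 0 in replicates 1 and 2 and took 8.26% and 10.8% of the values in replicates 3 and 4, and mitochondrially encoded genes took 2.44% to 3.13% against 4.90% to 5.04%. All 10 pan-neuronal markers were detected and summed to 11354 to 13394 CPM. That shows neuronal RNA, but such markers do not tell this ganglion from other nervous tissue. T and B cell markers summed to at most 0.717 CPM, and those of central glia to 10.9 to 20.3 CPM. Whether each central glia marker is particular to spinal cord was not tested, so their sum is no measure of spinal cord. In whole tissue, fewer cells of a type and less RNA per cell cannot be told apart.

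Osmr and Lifr lie next to each other on chromosome 15 (GRCm38), with Osmr at 6813577 to 6874969 on the minus strand, Lifr at 7090614 to 7197489 on the plus strand, 215644 bases between them and no protein-coding gene in that gap. Ifnar2 (chromosome 16, 91372783 to 91405589) and Ifnar1 (91485238 to 91507441) are both on the plus strand, 79648 bases apart, with Il10rb between them. Because the levels of these neighbouring genes are set against each other in the results, the 250 bases before their RefSeq starts, and before that of Il6st (chromosome 13, 112464070 to 112510086), are shown, taken from RefSeq on GRCm38.p6. All 10 members matched an entry, with 17 listed starts in all. The windows read 5′ to 3′ on the gene's own strand, and capitals mark GGGCGG (the GC box) and CCAAT on either strand, and TTCNNNGAA (a STAT site, the same on both strands).
Lifr, start 1, chr15:7129322-7129571, plus strand: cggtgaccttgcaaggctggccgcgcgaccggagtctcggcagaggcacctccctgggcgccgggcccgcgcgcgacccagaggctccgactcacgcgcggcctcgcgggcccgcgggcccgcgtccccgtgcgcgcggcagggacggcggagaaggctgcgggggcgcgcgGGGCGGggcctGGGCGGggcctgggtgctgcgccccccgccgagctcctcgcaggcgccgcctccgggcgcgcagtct
Lifr, start 2, chr15:7140292-7140541, plus strand: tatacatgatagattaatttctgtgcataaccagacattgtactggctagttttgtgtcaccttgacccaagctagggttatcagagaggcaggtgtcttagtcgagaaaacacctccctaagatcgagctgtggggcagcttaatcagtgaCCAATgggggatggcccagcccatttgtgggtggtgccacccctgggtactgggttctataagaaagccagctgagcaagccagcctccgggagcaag
Osmr, chr15:6874314-6874563, minus strand: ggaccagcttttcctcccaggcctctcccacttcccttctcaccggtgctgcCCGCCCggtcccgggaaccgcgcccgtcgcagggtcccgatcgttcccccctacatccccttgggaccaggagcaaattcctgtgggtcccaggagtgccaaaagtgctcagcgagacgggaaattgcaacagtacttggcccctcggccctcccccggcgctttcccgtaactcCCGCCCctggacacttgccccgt
Il6st, chr13:112463820-112464069, plus strand: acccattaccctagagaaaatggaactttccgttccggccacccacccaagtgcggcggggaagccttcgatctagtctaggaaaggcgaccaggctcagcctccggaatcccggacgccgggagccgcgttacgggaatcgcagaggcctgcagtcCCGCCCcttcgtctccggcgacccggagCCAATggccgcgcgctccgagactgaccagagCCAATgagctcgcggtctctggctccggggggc
Ifnar2, chr16:91372533-91372782, plus strand: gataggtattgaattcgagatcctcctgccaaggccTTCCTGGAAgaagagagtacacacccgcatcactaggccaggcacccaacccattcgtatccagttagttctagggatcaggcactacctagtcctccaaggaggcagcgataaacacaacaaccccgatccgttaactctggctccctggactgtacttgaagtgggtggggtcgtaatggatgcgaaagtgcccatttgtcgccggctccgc
Ifnar1, chr16:91484965-91485214, plus strand: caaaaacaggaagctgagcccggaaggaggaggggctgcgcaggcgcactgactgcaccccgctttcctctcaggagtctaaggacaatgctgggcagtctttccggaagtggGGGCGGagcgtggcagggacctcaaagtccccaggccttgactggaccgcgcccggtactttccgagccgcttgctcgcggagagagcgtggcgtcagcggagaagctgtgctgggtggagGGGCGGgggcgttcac
Both RefSeq starts of Lifr and that of Osmr lie inside the genes as given above, downstream of their annotated starts. The first Lifr start had 43 CG dinucleotides in its window, against a median of 6.0 over the 32851 windows of all genes, and the second Lifr start had 3. Osmr had 18 and Il6st 26. GGGCGG occurred in 9 of the 17 member windows, those of 7 members, and in 32.7% of all windows. The windows of Cntfr starts 4 and 5 overlap and share the same matches, so the 17 are not independent. TTCNNNGAA occurred in 3 of the 17, those of Ifnar2, Tnfrsf1a and Tnfrsf1b, and in 7.02% of all windows. CCAAT occurred in 3 of the 17, against 33.8% of all, and TATAAA in 0 of the 17, against 12.4% of all. A match is a description of letters, and the libraries, which read the 3′ ends of transcripts, do not show which start was used.

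Lifr, which encodes the receptor chain that leukaemia inhibitory factor and ciliary neurotrophic factor (CNTF) recruit beside gp130, had the highest level of the 10 genes. It reached 637, 673, 1095 and 1159.9 CPM in replicates 1 to 4, a mean of 891 ± 274 CPM (SD, n = 4). Its level was above that of 98.7% to 99.6% of the 14817 genes averaging 1 CPM or more, and 106 genes of the table had a higher mean. Lifr held 68.1% ± 5.32 of the summed level of the 10 members, which was 1291 ± 304 CPM. The values of replicates 3 and 4 lay above those of replicates 1 and 2, at 1.72 times their mean.

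Il6st, the gene of gp130 itself, came next with 267, 243, 318 and 319 CPM, a mean of 287 ± 38.0 CPM, and held 22.6% ± 2.69 of the summed level. Its 4 values stayed within a narrow range, although replicates 3 and 4 were again both higher than replicates 1 and 2. The ratio of Lifr to Il6st within a library was 2.39, 2.77, 3.44 and 3.63. By the Euclidean distance of log2(CPM + 1) over the 4 libraries, Cd47 was among the genes with levels most like those of Lifr (distance 0.31), and those most like Il6st were Ppp2ca, a phosphatase subunit gene (0.09), and Eea1 (0.11).

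**Figure D1:**
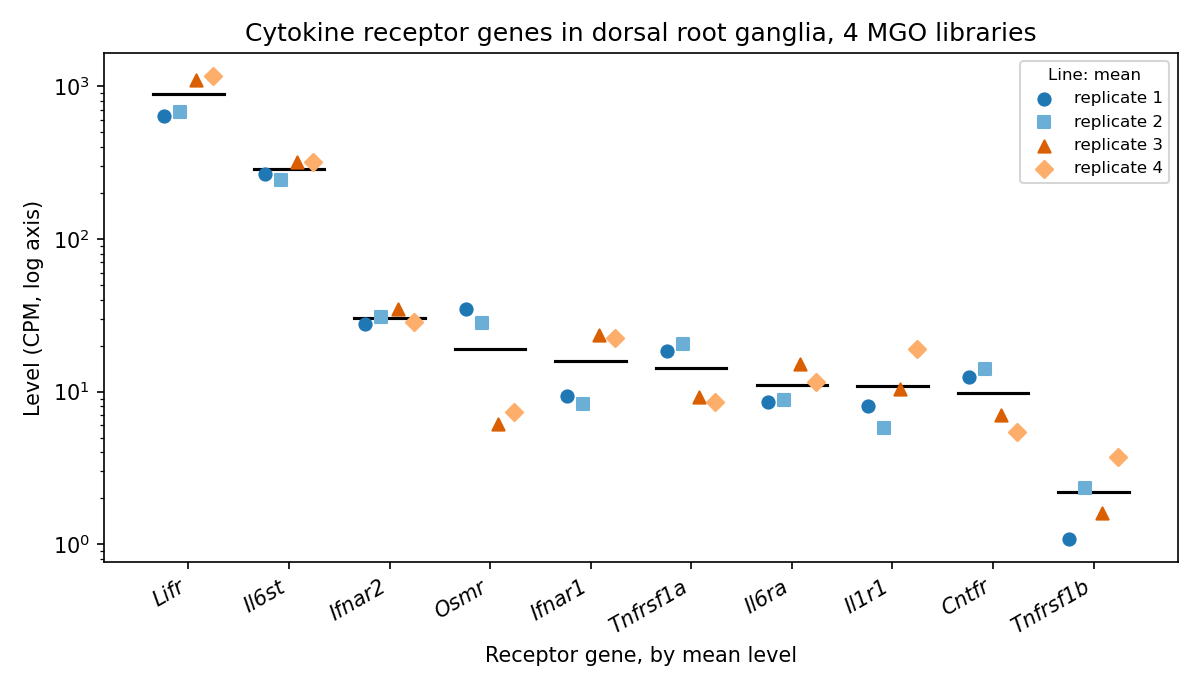
Level of each of the 10 receptor genes in CPM (log axis) in the 4 MGO libraries, with 1 point per library and a black line at the mean. Lifr (637 to 1159.9 CPM) and Il6st (243 to 319 CPM) lie above the other 8 genes in all 4 libraries, Tnfrsf1b is the lowest in all 4, and Osmr has the widest spread.

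Each gene averaging 1 CPM or more was then set against Il6st in the same library, as a difference of log2(CPM + 1), and tested with limma, with p-values adjusted over all 14816 genes tested. Lifr exceeded Il6st 3.01-fold on that scale (1.59 on the log2 scale with an SE of 0.18, adjusted p = 0.000227 by limma), in 4 of 4 libraries. This fit and the later ones of all 4 libraries treated the libraries as independent. They had no term for the library pairs, so their p-values do not allow for the pairs. Of all genes tested, 1.58% were called above Il6st and 94.0% below it. The other 8 members were all called below it, each in 4 of 4 libraries, which is close to the share of genes in general. Divided by exonic length, which does not suit 3′ reads, these 8 differences shrank to between -1.40 for Ifnar2 and -4.10 for Tnfrsf1b on the log2 scale and stayed called. The 1 added before taking log2 was kept for these smaller values, which by itself shrinks the differences of low genes.

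**Figure D2:**
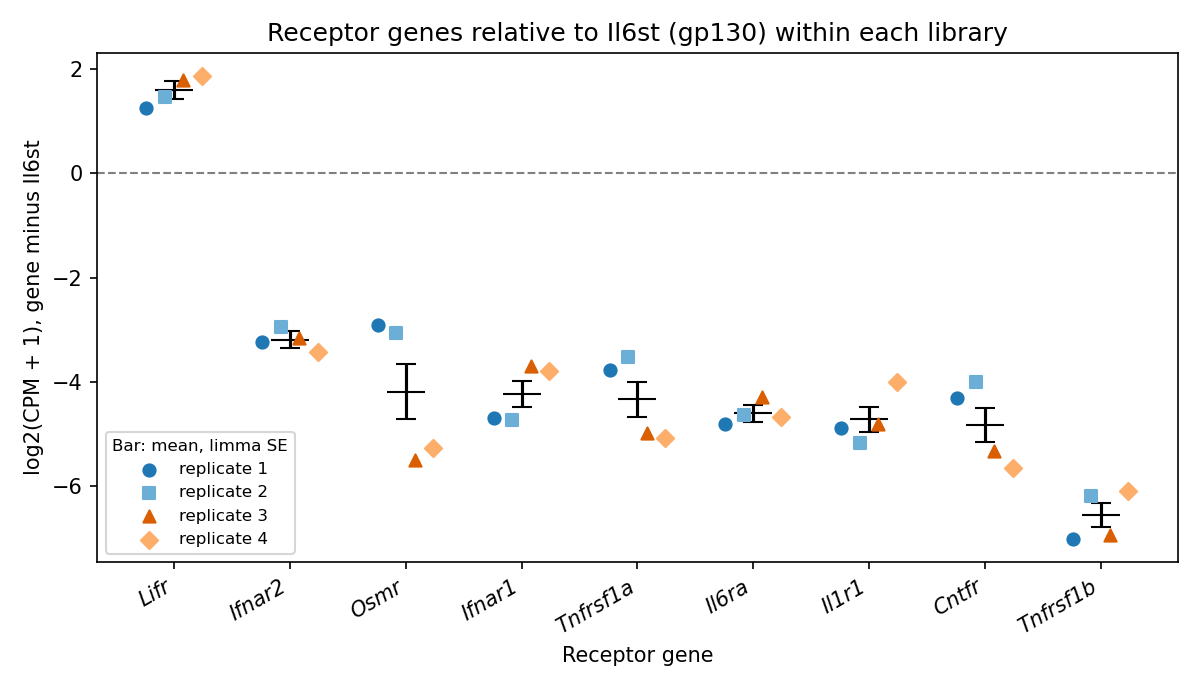
Difference of log2(CPM + 1) between each receptor gene and Il6st in the same library, with 1 point per library, and the mean with its limma SE in black. Lifr lies above the dashed line at 0 in all 4 libraries, and the other 8 genes lie below it, from -3.19 for Ifnar2 to -6.55 for Tnfrsf1b.

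Il6ra, the chain that binds interleukin 6, had 8.58, 8.80, 15.2 and 11.6 CPM, a mean of 11.1 ± 3.11 CPM. Il6st exceeded it 24.3-fold (log2 value of Il6ra to Il6st -4.60 with an SE of 0.17, adjusted p = 2.20e-06 by limma), and the ratio stayed between 20.8 and 31.1 in the single libraries. Il6ra overlaps 242 exonic bases of an antisense gene, Gm42809, listed at 0 CPM. Cntfr, whose product binds CNTF and is held in the membrane by a lipid anchor, had 12.5, 14.1, 6.99 and 5.40 CPM, a mean of 9.77 ± 4.23 CPM. The order of these ligand-binding chains turned between the library pairs. Cntfr was above Il6ra in replicates 1 and 2 and below it in replicates 3 and 4, and the means did not differ by the test (-0.22 on the log2 scale with an SE of 0.37, adjusted p = 0.612 by limma), while 73.4% of all genes tested differed from Il6ra.

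Osmr encodes the chain that pairs with gp130 for oncostatin M and, in itch-related sensory neurons, with the product of Il31ra for interleukin 31. It had 34.6, 28.2, 6.10 and 7.34 CPM, a mean of 19.1 ± 14.5 CPM, the largest relative spread of the 10 genes. Osmr was among the 4 highest members in replicates 1 and 2 and among the 3 lowest in replicates 3 and 4, where it stood for 34 and 53 reads. Il31ra, in contrast, had 15.0, 15.7, 19.5 and 15.0 CPM, so that Osmr lay above it in replicates 1 and 2 and below it in replicates 3 and 4.

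Lifr exceeded Osmr 54.6-fold (5.77 on the log2 scale with an SE of 0.65, adjusted p = 0.000194 by limma), in 4 of 4 libraries. The ratio of these neighbouring genes was 18.4 and 23.9 in replicates 1 and 2 and 179.5 and 158 in replicates 3 and 4, so its size differed between the pairs while its direction did not. Of all genes tested, 53.5% differed from Osmr in either direction.

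Il1r1, the signalling receptor of interleukin 1, had 8.09, 5.79, 10.4 and 19.0 CPM, a mean of 10.8 ± 5.75 CPM, with the highest value in replicate 4. Il1rap, its accessory chain and not one of the 10 members, had 6.31, 3.12, 3.94 and 1.52 CPM, and overlaps 552 exonic bases of an antisense gene, Gm20319 (2.26 CPM), whose reads cannot be told apart from it without strand. Il1r1 was above Il1rap in 4 of 4 libraries, 2.47-fold by the fit (log2 value of Il1rap to Il1r1 -1.31 with an SE of 0.48, adjusted p = 0.0179 by limma), with 66.3% of all genes differing from Il1r1. The ratio ran from 1.28 in replicate 1 to 12.5 in replicate 4. The call was lost without replicate 3 (limma adjusted p = 0.0772), without replicate 4 (0.0779) and without moderation of the variance (0.165).

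Tnfrsf1a encodes TNFR1, the TNF receptor with an intracellular death domain, and Tnfrsf1b encodes TNFR2, which lacks one. Tnfrsf1a had 18.5, 20.4, 9.15 and 8.58 CPM, a mean of 14.2 ± 6.17 CPM. Tnfrsf1b had 1.08, 2.34, 1.61 and 3.74 CPM, a mean of 2.19 ± 1.15 CPM, and ranked last of the 10 genes in each library, on 9 to 27 reads. Tnfrsf1a exceeded Tnfrsf1b 4.66-fold (log2 value of Tnfrsf1b to Tnfrsf1a -2.22 with an SE of 0.39, adjusted p = 0.00286 by limma), in 4 of 4 libraries, and 72.4% of all genes differed from Tnfrsf1a. The ratio in the single libraries ranged from 2.30 in replicate 4 to 17.1 in replicate 1.

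Of the interferon receptor chains, Ifnar2, which binds the ligand with high affinity, had 27.5, 30.7, 34.8 and 28.7 CPM, a mean of 30.4 ± 3.20 CPM and the smallest relative spread of the 10 genes. Ifnar2 shares 315 exonic bases on the same strand with the entry Gm21970, listed at 0 CPM, so shared reads may be assigned to either. Ifnar1, the chain that associates with TYK2, had 9.37, 8.24, 23.5 and 22.3 CPM, a mean of 15.8 ± 8.16 CPM, and replicates 3 and 4 lay at 2.60 times the mean of replicates 1 and 2. Ifnar2 was the higher in 4 of 4 libraries, at a ratio of 2.94, 3.73, 1.48 and 1.29. The difference just missed the threshold in the fit of all genes against Ifnar1 (1.03 on the log2 scale with an SE of 0.37, adjusted p = 0.0503 by limma), in which 60.3% of genes differed from Ifnar1, and passed in the fit against Ifnar2 (adjusted p = 0.0150). On the means of the library pairs its adjusted p was 0.378.

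By their means the 10 genes ran from Lifr, Il6st, Ifnar2, Osmr and Ifnar1 to Tnfrsf1a, Il6ra, Il1r1, Cntfr and Tnfrsf1b, and 3 of the 9 steps between neighbours passed. The step from Lifr to Il6st passed in the fit against Lifr (limma adjusted p = 0.000461), from which 98.6% of all genes differed. The step from Il6st to Ifnar2 was 9.13-fold (-3.19 on the log2 scale with an SE of 0.16, adjusted p = 6.48e-06 by limma). The step from Cntfr to Tnfrsf1b passed as well (-1.73 on the log2 scale with an SE of 0.39, adjusted p = 0.00674 by limma), with 72.2% of all genes differing from Cntfr, but not without moderation of the variance (adjusted p = 0.0618).

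In the fit of all 4 libraries none of the 6 steps among the 7 genes from Ifnar2 to Cntfr passed. A step compares neighbours only, and the genes after Osmr were called below Ifnar2 in the fit against it, each in 4 of 4 libraries. Their limma adjusted p-values were 0.0150 for Ifnar1, 0.00930 for Tnfrsf1a, 0.000497 for Il6ra, 0.00266 for Il1r1 and 0.00156 for Cntfr. The step from Ifnar2 to Osmr did not pass (limma adjusted p = 0.0940, with 80.8% of all genes differing from Ifnar2), but did without replicate 1 (adjusted p = 0.0252), with division by exonic length (0.000994) and with a term for the library pair (2.67e-05), though not on the means of the library pairs (0.0832). The step from Tnfrsf1a to Il6ra passed with division by exonic length (limma adjusted p = 0.00601) and with the pair term (0.0356), and not on pair means (0.749). With all 4 libraries and no alternative setting, the 5 steps from Osmr through Ifnar1, Tnfrsf1a, Il6ra and Il1r1 to Cntfr gave limma adjusted p-values of 0.552 to 0.964. Their means of 9.77 to 19.1 CPM lie near the median of 14.3 CPM over all genes with at least 1 CPM, and the median over the 10 members was 15.0 CPM.

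Replicates 1 and 2 did not overlap replicates 3 and 4 for 8 of the 10 genes, close to the 78.5% of all genes for which this held. Osmr, Cntfr and Tnfrsf1a were higher in replicates 1 and 2, as were 45.8% of all genes. Their pair means were 31.4 against 6.72 CPM for Osmr, 13.3 against 6.20 CPM for Cntfr and 19.5 against 8.86 CPM for Tnfrsf1a. Lifr, Il6st, Il6ra, Il1r1 and Ifnar1 were higher in replicates 3 and 4, as were 32.6% of all genes. Over all genes the median difference of replicates 3 and 4 minus replicates 1 and 2 was -0.16 on the log2 scale. Osmr lay at percentile 3.89 of this difference and Ifnar1 at percentile 94.9. Ifnar2 and Tnfrsf1b overlapped between the pairs.

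Other features moved with the same pairs. For scale, 45.8% of all genes were higher in replicates 1 and 2 and 32.6% in replicates 3 and 4. Pan-neuronal markers summed to 13223 to 13394 CPM in replicates 1 and 2 and to 11354 to 13044 CPM in replicates 3 and 4. Of these 10 markers, 6 were higher in replicates 1 and 2 and the other 4 in replicates 3 and 4. Schwann cell markers summed to 28143 to 29229 CPM in replicates 1 and 2 and to 16102 to 16311 CPM in replicates 3 and 4, with 6 of 7 higher in replicates 1 and 2. Satellite glia markers summed to 1231 to 1253 against 569.6 to 621 CPM (4 of 6), macrophage markers to 312 to 358 against 264 to 268 CPM (8 of the 9 averaging 1 CPM or more), and neutrophil markers to 220.0 to 225 against 26.7 to 33.9 CPM (5 of 5). Fibroblast markers summed to 1765 to 1936 against 1319 to 1517 CPM (2 of 6), whereas endothelial markers summed to 129 to 139 against 152 to 154 CPM, with 2 of 6 higher in each pair. Central glia markers summed to 10.9 to 11.8 against 18.8 to 20.3 CPM, where Slc1a2 had 3.35 and 4.23 against 11.7 and 12.3 CPM. Opalin (0.296 and 0.111 against 0 and 0 CPM) and Olig1 (0.592 and 1.23 against 0 and 0.415 CPM) were higher in replicates 1 and 2. Of the macrophage markers, Adgre1 (3.65 and 3.57 CPM in replicates 1 and 2) and Cd68 (0.296 and 0.446 CPM) were listed at 0 in replicates 3 and 4. The floor there is 0.538 and 0.415 CPM. Opalin and Cd68 lay near or below it, so their 0 values need not mark a difference. Exonic length moved with the pairs too. Its median was 3711 bases for all genes higher in replicates 1 and 2 and 5410 bases for those higher in replicates 3 and 4, while Cntfr has 2782 bases, Tnfrsf1a 2591, Lifr 10776, Il6st 11099 and Osmr, higher in replicates 1 and 2, has 12113. The part of these in the levels of the receptors was not tested.

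**Figure D3:**
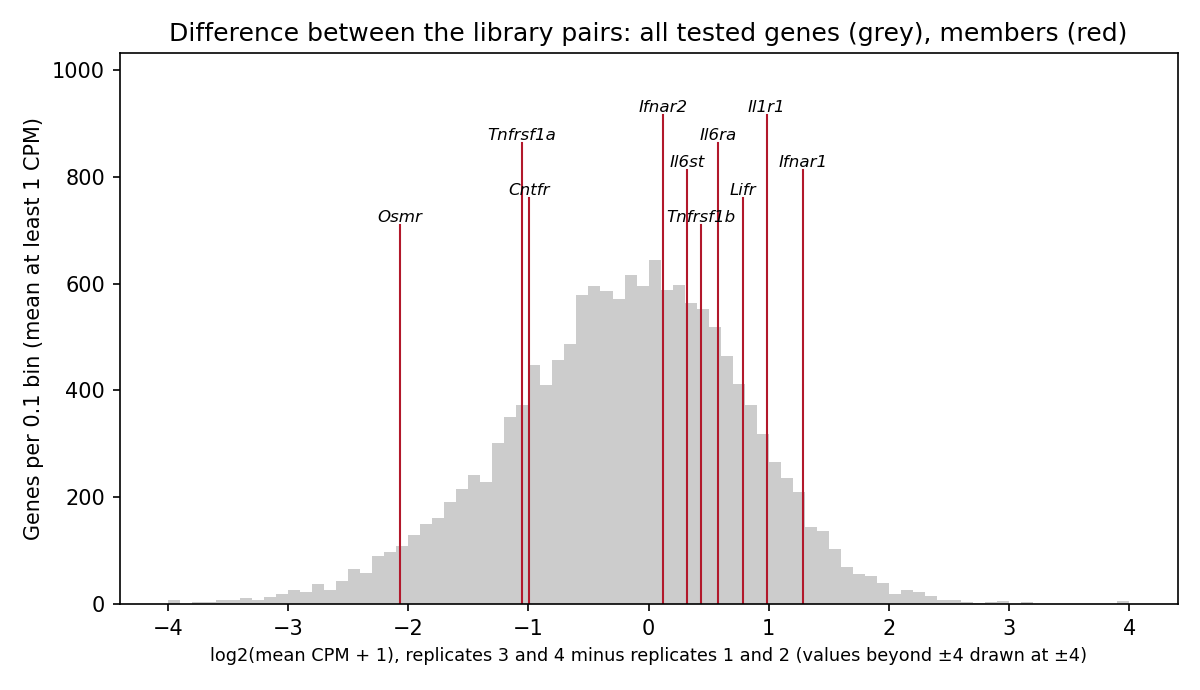
Difference between the mean of replicates 3 and 4 and that of replicates 1 and 2, as log2(mean CPM + 1), for all 14817 genes averaging 1 CPM or more (grey histogram) and the 10 receptor genes (red lines). The receptor genes spread over most of the distribution, from Osmr at -2.07 to Ifnar1 at 1.28.

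Ligands of the same receptors were mostly scarce. Of 10 ligand genes of the gp130 family, 4 reached 1 CPM in all libraries. Cntf, the ligand of the Cntfr, Lifr and gp130 complex, led with 176, 171, 36.8 and 31.1 CPM, high in replicates 1 and 2 and low in replicates 3 and 4. It shares 847 of its 1073 exonic bases with Zfp91, which had 309, 287, 646 and 697 CPM, so reads may be assigned to either gene and its level is uncertain. Il11 had 24.1 ± 11.2 CPM. Il6 had 0 to 0.223 CPM, Lif 0 to 0.446 CPM and Il27 0 to 0.296 CPM, values of a few reads at most.

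Of 8 genes for ligands of the interleukin 1, TNF and interferon receptors, Il1rn, which encodes the natural antagonist of Il1r1, was the highest at 3.04 ± 1.66 CPM. Il1b had 0 to 1.78 CPM and Tnf 0 to 0.277 CPM. Il1a, Ifnb1, Ifna2 and Ifna4 were listed at 0 in all 4 libraries, which allows up to 0.538 CPM in the shallowest one.

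Most genes that act below the receptors were detected. All 10 JAK-STAT genes reached 1 CPM in every library, with the kinase gene Jak1 at 255 ± 56.0 CPM and Stat3 at 218 ± 44.0 CPM. Jak1 was the 1 gene of these 10 not called below Il6st by limma. Tyk2, the kinase of Ifnar1, had the lowest mean at 10.5 ± 1.13 CPM. Of the feedback inhibitors, Socs2 led with 56.6 ± 8.36 CPM, whereas Socs3, the inhibitor that binds gp130, was scarce. Socs3 had 0.789 CPM in replicate 1 and 0.179 to 0.277 CPM in the other replicates, below the floor of 3 reads there.

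In the interleukin 1 and TNF branch, 14 of 15 adaptor genes reached 1 CPM in all libraries, led by Tab2 (104 ± 58.8 CPM) and Birc2 (36.0 ± 5.93 CPM), with the death-domain adaptor gene Fadd lowest at 0.847 ± 0.455 CPM. Nfkbia, the inhibitor of NF-kB, had 181 ± 13.7 CPM. Of the proteases that shed Il6ra and TNF receptors from the cell surface, Adam10 had 184 ± 26.4 CPM and Adam17 had 31.8 ± 3.96 CPM. Among interferon-stimulated genes, 5 of 10 reached 1 CPM in all libraries, with Ifi27 at 96.9 to 102 CPM in replicates 1 and 2 and 13.4 to 13.6 CPM in replicates 3 and 4, Rsad2 steady at 26.1 ± 0.995 CPM, and Oas1a at 0 to 0.111 CPM.

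Of 25 other cytokine receptor genes, 18 reached 1 CPM in all libraries. The death receptor gene Tnfrsf21 had 361 ± 32.3 CPM, the interferon gamma receptor gene Ifngr1 233 ± 21.3 CPM and Il11ra1, the interleukin 11 receptor chain that pairs with gp130, 211 ± 118 CPM. The level of Il11ra1 is uncertain, since the entry Gm13305 (146 ± 79.6 CPM) is 98.6% identical to it over 2578 aligned bases. Il27ra, another partner of gp130, had 0 to 0.0986 CPM. None of the 25 was called above Il6st and 16 of the 19 tested were called below it, against 94.0% of all genes.

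**Figure D4:**
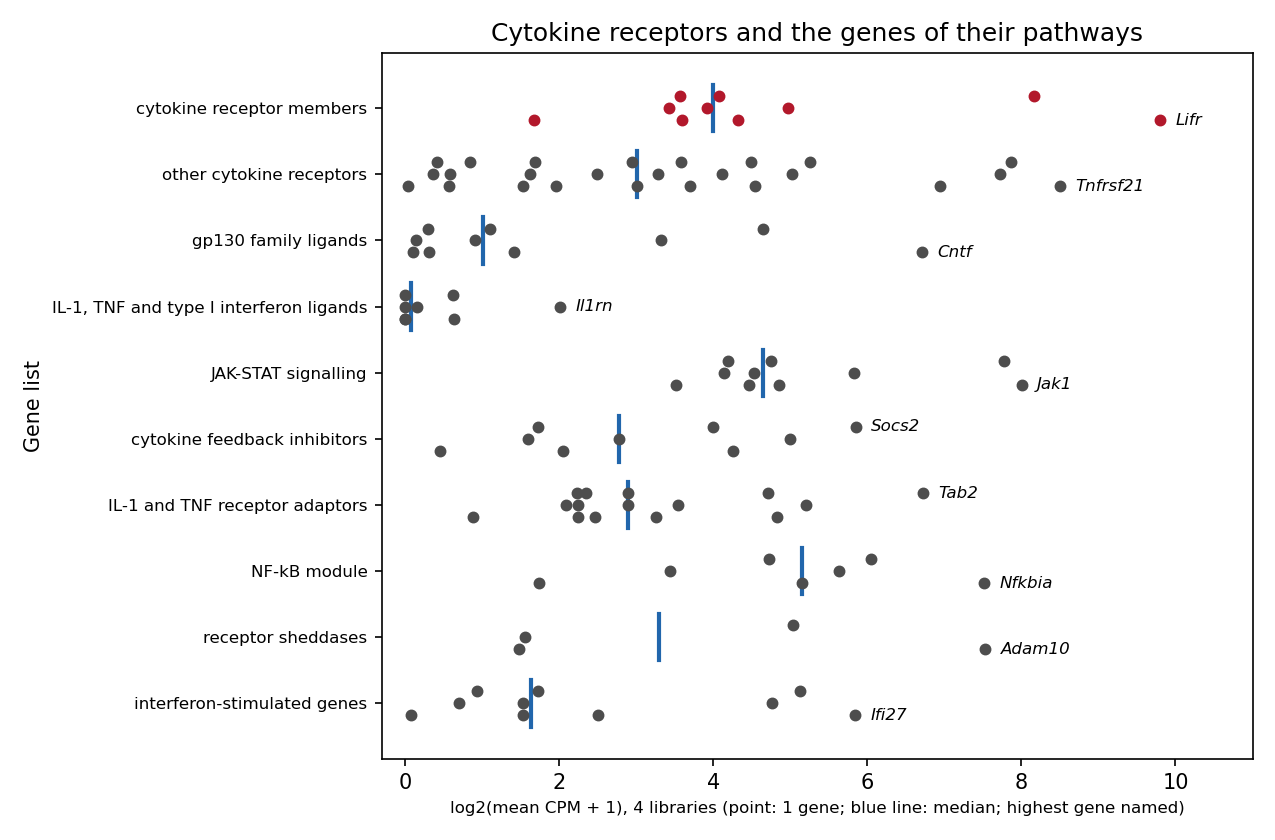
Mean level over 4 libraries, as log2(mean CPM + 1), of the 10 receptor genes (red) and of genes in 9 related lists (dark grey), with 1 point per gene and a blue line at each list's median. The receptor genes have their median at 15.0 CPM, the 10 gp130 family ligands at 1.01 CPM and the 8 ligands of the other receptors at 0.0570 CPM.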

How the data were processed

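RNA of 4 ganglion libraries in 1 group was analysed. Per the labels' protocols, RNA came from a TRIzol extraction, RiboCop removed ribosomal RNA, and a Lexogen QuantSeq 3′ kit was used for the libraries. Tools named in the submitters' processing notes, without roles, are Bowtie2 2.2.9, TopHat2 2.1.1, Cufflinks 2.2.1 and FastQC 0.11.5, beside the builds mm10 and GRCm38.p4. Neither annotation nor use of strand is given in the sources used here. Per the file headers the deposited unit is TPM, yet the numbers have the properties of CPM: at least 98.277% of the values above 0 per library were whole multiples of a shared step to within 0.05 of it, and each library summed to 1000000. They were used as CPM, with no scaling by length, which suits 3′ reads. As other values were fractions of a step, no count model was run.

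Differences between genes were tested within libraries on log2(CPM + 1), which understates folds of low genes, using an intercept-only, two-sided test of limma 3.58.1 (R 4.3.3), each time for all genes averaging 1 CPM or more against 1 receptor gene, with Benjamini-Hochberg adjustment over all of them and a threshold of 0.05. The planned unit was TPM, and CPM took its place in an otherwise equal test. Moderation borrows spread from genes that share the reference gene's own noise, so p-values against a scarce gene are too small. Positions and exonic lengths came from GENCODE M21 (48052 of 48431 identifiers matched), promoters from RefSeq, and copies were aligned with BLAST 2.17.0. Python 3.11.15 with numpy 2.4.6 and pandas 2.3.3 was used, and the test was checked on simulated data. The simulated libraries had no pairs, and their reference gene had the level of Il6st. That check therefore does not cover the library pairs or scarce reference genes.

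The members and gene lists were chosen with earlier results of these data known. The genes named are the 10 members and Il1rap, up to 3 of the highest and lowest genes of each list and genes listed at 0, and of the 2 genes most like Lifr and the 2 most like Il6st those reported here. Some genes that this rule names are not reported here. Il31ra, Il10rb and Tyk2 were named for their link to a member, and Gm20319, Gm42809, Gm21970, Zfp91 and Gm13305 for shared or antisense sequence. Alternatives were each replicate left out, a pseudocount of 0.1, no filter, rescaling without mitochondrial or 18S entries, division by exonic length, a term for the library pair, pair means and no moderation.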

Additional observations from a re-analysis of the deposited data

How the results depend on the processing

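All 9 members set against Il6st kept their direction and stayed called in each of the 12 alternatives with a test. On pair means only 2 values stand behind each gene. The p-values there rest mostly on spread borrowed from other genes, so a call on pair means says little about the pairs. Division by exonic length, however, moved the log2 difference from Il6st to -1.40 for Ifnar2, -2.12 for Tnfrsf1a, -2.63 for Cntfr, -2.94 for Ifnar1, -3.36 for Il1r1, -3.50 for Osmr, -3.56 for Il6ra and -4.10 for Tnfrsf1b, and that of Lifr minus Osmr to 5.10. The 1 added before taking log2 was kept for these smaller values, so the moves do not reflect length alone. Osmr has more exonic bases (12113) than Il6st (11099), yet its difference shrank from -4.18. Lifr over Osmr and Tnfrsf1a over Tnfrsf1b also kept their direction and stayed called, with adjusted p-values of at most 0.0450 and 0.0366 (limma). No paired analysis was possible because 1 group leaves no replicate numbers to pair across groups (genes were compared within libraries). The steps between neighbours that passed rose from 3 to 5 with division by exonic length, a setting that suits reads along whole transcripts, and to 5 with a term for the library pair, the steps gained in both being Ifnar2 to Osmr and Tnfrsf1a to Il6ra. On pair means 3 passed and neither of these did. With division by exonic length all 5 partner pairs passed. The summed level was 134 CPM per kb after that division, a change of unit. Leaving out 1 replicate, the summed level was 1193 to 1380.0 CPM, the neighbouring steps that passed 3 to 4, the partner pairs 2 to 3 and the members called against Il6st 9 to 9. Uncalled differences turned sign. With division by exonic length the log2 difference was 0.56 for Ifnar1 minus Osmr, 0.82 for Tnfrsf1a minus Ifnar1, 0.20 for Il1r1 minus Il6ra and 0.73 for Cntfr minus Il1r1, and Cntfr passed above Il6ra (0.93, adjusted p = 0.0308). Leaving out 1 replicate, it ran from -0.65 to 0.54 for Ifnar1 minus Osmr, -0.55 to 0.28 for Tnfrsf1a minus Ifnar1, -0.59 to 0.016 for Il6ra minus Tnfrsf1a, -0.37 to 0.025 for Il1r1 minus Il6ra, -0.53 to 0.41 for Cntfr minus Il1r1 and -0.50 to 0.048 for Cntfr minus Il6ra.
Ifnar2 over Ifnar1 passed with no filter (adjusted p = 0.0379), with division by exonic length (0.00686) and with a term for the pair (3.94e-05), but not on the means of the same pairs (0.378). Il1r1 over Il1rap was lost on pair means (adjusted p = 0.155). In replicates 1 and 2 alone and in replicates 3 and 4 alone, settings added after seeing the data and given without a test, no called difference turned. After rescaling without the 18S entries, 9 members did not overlap between the library pairs in place of 8. The share of all genes after that rescaling is not given here, so this count is not read as a result about the members. With 9 to 27 reads, the depth limits Tnfrsf1b most. The causes of these changes were not tested.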
